A study of Mus musculus with 9 samples.

Results

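Heat shock proteins and the J-domain proteins that work with them were followed in heart RNA of 9 male NSG mice, an immunodeficient strain that lacks T, B and natural killer cells and therefore accepts human tumour cells. The genes were chosen by symbol: every Hspa, Hspb, Hspd, Hspe, Hsph and Hsp90 gene, every Dnaja, Dnajb and Dnajc gene, Bag3 and Hsf1, leaving out the endoplasmic reticulum chaperones Hspa5, Hsp90b1, Dnajb9, Dnajb11 and Dnajc3. This gave 64 of the 13890 genes listed, of which 36 encode J-domain proteins, and 62 passed the filter on low counts (Dnajb3, at 0.0508 to 0.618 normalized CPM, and Dnajc6, at 0.287 to 0.986, did not). All mice were operated at 8 weeks of age and killed in the third or the fourth week after surgery, on which the sources differ. Sham mice (S, animals 2, 3 and 5) received saline into the spleen, the mice labelled splenic HCT116 (T, animals 11, 12 and 15) are listed as having received HCT116 cells, a human colorectal cancer line that seeds the liver from this site, and the mice labelled splenic HCT116+ACVR2B/Fc (A + T, animals 20, 21 and 22) also received weekly ACVR2B/Fc. This protein is the ligand-binding part of activin receptor type 2B fused to an antibody Fc fragment, and it captures activins, myostatin and related ligands. Sham mice given ACVR2B/Fc were not analysed here as a labelled group. Because all 3 groups are of this strain, each of them lacks adaptive immunity, and the sham mice carry no tumour.

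Heat shock proteins are molecular chaperones. HSP70 proteins bind exposed stretches of unfolded proteins in a cycle driven by ATP, J-domain proteins deliver the client and trigger hydrolysis, and HSP110 and BAG proteins exchange the nucleotide so that the client is released. HSP90 finishes the folding of kinases and hormone receptors, small heat shock proteins hold unfolded proteins and filaments without ATP, and heat shock factor 1 (Hsf1) switches many of these genes on under stress. In the heart, small heat shock proteins and Bag3 are known for their part in the upkeep of the sarcomere.

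The libraries held 12392222 to 19732471 counts, and the ribosomal gene Rn45s took 4.57% to 19.6% of them. Levels are given as normalized CPM, counts relative to the library's size after that size was scaled by trimmed means of M values (TMM), and 3 counts corresponded to 0.152 to 0.281 CPM. The 6 cardiomyocyte markers summed to 55695 to 61856 CPM in sham hearts, 42678 to 52559 in T and 39734 to 55567 in A + T, so that every S library had the higher sum, whereas the skeletal muscle markers measured summed to at most 3.64 CPM. Transcripts of airway and lung stood out in animals 12 and 22 (Scgb1a1 at 79.95 and 1079 CPM, and at most 1.37 CPM in the other libraries), and the summed markers of the atrium were at 3000.1 to 3084 CPM in sham hearts, 861 to 4554 in T and 793 to 2055 in A + T, where every library was below S. Whether the libraries labelled T came from untreated tumour hosts or from sham mice given ACVR2B/Fc could not be settled from the counts. The doubt arises because a list of differences that accompanies the study gives to another pair of groups the directions that these libraries show against S, and no value of that list was used. The labels were kept, so T is used here as the name of a label, and a value for T describes the libraries that carry it and no more.

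To compare genes with each other, the deposited log2 values were used, which are scaled by gene length as well as by library. On this scale the most abundant member was Hspb7, a small heat shock protein of heart muscle, with a level of 10.58 ± 0.14 (SD, n = 3) in sham hearts, 10.81 ± 0.15 in T and 10.16 ± 0.15 in A + T. Hspb6 (HSP20) followed at 9.65 ± 0.04, 9.87 ± 0.27 and 9.30 ± 0.22. Over all 9 libraries the next mean levels were 9.0 for Hsp90ab1, the constitutive cytosolic HSP90, 8.73 for Hspa8, the constitutive HSP70 of the cytosol, 8.11 for Hspb8 and 8.00 for Hspa9, the HSP70 of mitochondria. The most abundant J-domain protein was Dnaja2, with a mean of 6.59, and the stress-inducible pair Hspa1b and Hspa1a lay at the bottom of the order. Only uniquely mapped reads were counted, and 68.0% of the 75-base stretches of the Hspa8 transcript also occur in other genes. Genes with such copies, Hspa1a and Hspa1b among them, may therefore stand too low in this order. Hspb7 alone gave 29.5% to 38.5% of the summed CPM of all members.

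**Figure D1:**
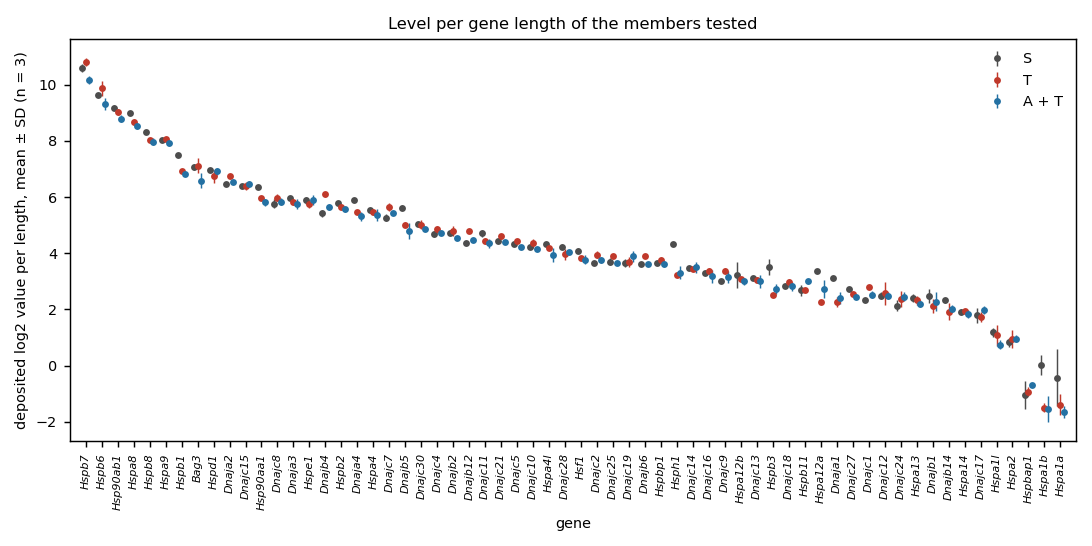
Deposited log2 values, scaled by gene length, of the 62 members tested (mean ± SD, n = 3 libraries per group), ordered by their mean over all libraries. Hspb7, Hspb6, Hsp90ab1, Hspa8, Hspb8 and Hspa9 lie at 8.00 or above on average, and Hspa1b and Hspa1a are the last in the order. Genes with close copies elsewhere may lie too low, because only uniquely mapped reads were counted.

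The first comparison, T vs. S, asks what differs in the hearts labelled as tumour-bearing. Here 11 of the 62 members tested fell and 7 rose at an adjusted P-value under 0.05 (edgeR's quasi-likelihood test, Benjamini-Hochberg over 13364 genes), beside 11% of all genes that fell and 10.3% that rose. The members called made up 29.0% of those tested, against a background of 21.2%. At an unadjusted P-value under 0.05 there were 24 members (background 35.4%), of which 7 were at least 1.5-fold lower (background 9.01%) and 1 at least 1.5-fold higher (5.2%). The S and T libraries did not overlap for 16 members that were lower in T (background 21.5%) and 11 that were higher (21.1%). Of the 28 members that are not J-domain proteins, 8 fell and none rose, and of the 34 J-domain proteins tested, 3 fell and 7 rose. Over all 62 members tested, the share that rose was 11.3%, near the background of 10.3%. This holds for the members pooled and not for each class, and the difference between these classes was not tested. The median log2 fold change was -0.15 over the 28 and 0.08 over the 34 J-domain proteins tested, with -0.0038 over all genes. A lower value in bulk tissue can mean fewer cells of a type or less RNA per cell, and these cannot be told apart.

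**Figure D2:**
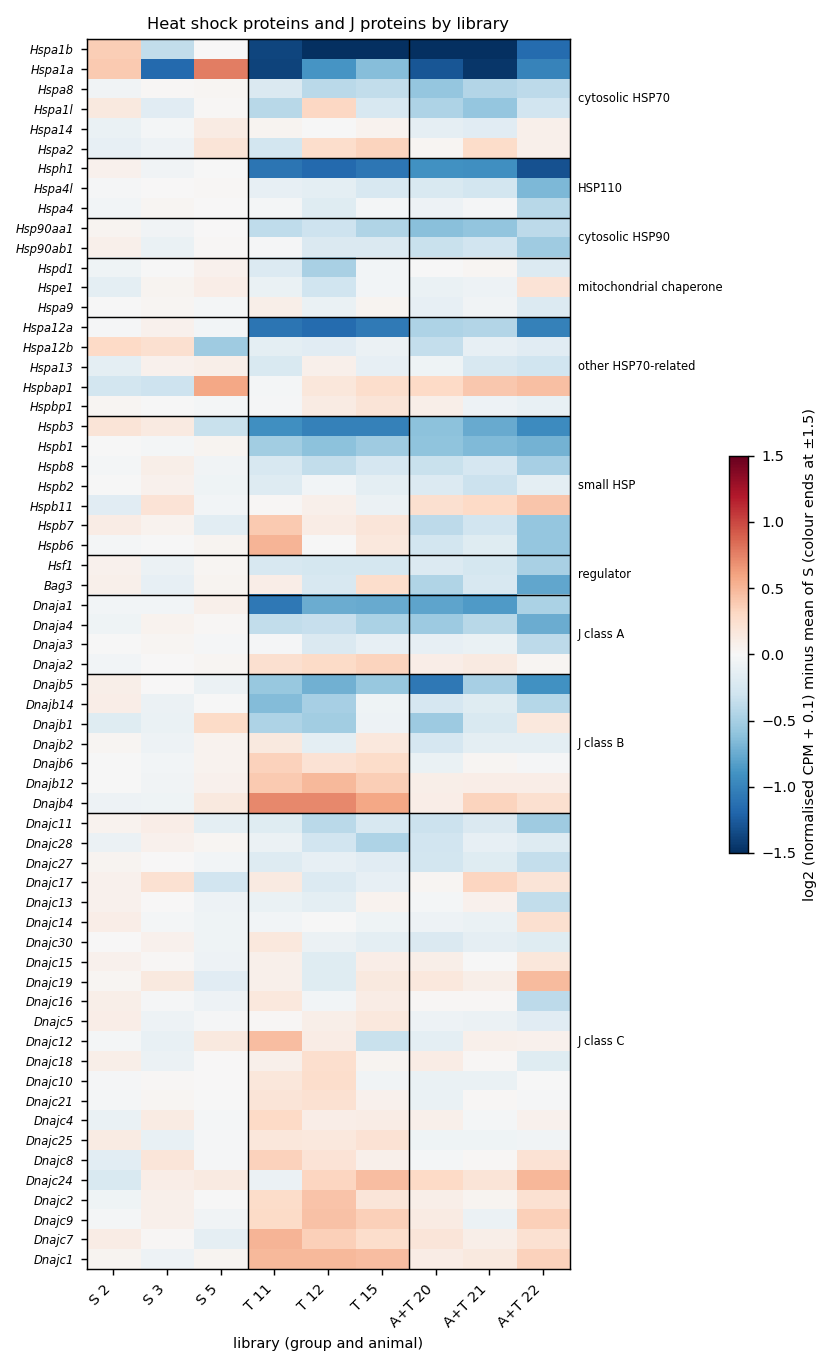
Each row is 1 of the 62 members tested and each column 1 library. Colour gives log2(normalized CPM + 0.1) minus the mean of the 3 S libraries, with the colour scale ending at ±1.5 and genes grouped by class. Hsph1, Hspa1b, Hspa12a, Hspb3 and Dnaja1 are blue in all T and A + T libraries, whereas Dnajb4, Dnajb12 and Dnajc1 are red mainly in T.

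The members called with the largest falls were Hspa1b (-1.67), Hsph1 (-1.12), Hspa12a (-1.11) and Hspb3 (-1.02). Hsph1 (chr5:149614287-149636376, - strand, GRCm38), the HSP110 that exchanges the nucleotide of HSP70, was at 74.2, 68.6 and 70.5 normalized CPM in the S animals, 33.1, 31.6 and 33.4 in T and 37.9, 37.6 and 28.7 in A + T. All T libraries lay far below all S libraries, and the A + T libraries stayed in the same low range. The log2 fold change T vs. S was -1.12 ± 0.10 (SE), adjusted P = 0.000161, a 2.18-fold lower level. Hspa1b (chr17:34956436-34959238, - strand), 1 of the 2 inducible HSP70 genes, had few transcripts in all hearts, with 3.54, 2.08 and 2.75 normalized CPM in the S animals, 0.991, 0.773 and 0.842 in T and 0.557, 0.861 and 1.17 in A + T. Its log2 fold change was -1.67 ± 0.32 (SE), adjusted P = 0.00525, without overlap between the groups. Its neighbour Hspa1a spread more widely within S, at 2.6, 0.812 and 3.4 normalized CPM in the S animals, 0.682, 1.01 and 1.22 in T and 0.742, 0.646 and 0.924 in A + T. The S animal 3 lay inside the T range, and the difference did not pass the test (-1.22 ± 0.48 (SE), adjusted P = 0.0946). These 2 genes share 55.8% and 54.2% of their 75-base transcript windows with another gene, mostly each other, so uniquely mapped reads count only part of each of them.

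Hspa8 and the HSP90 genes had smaller differences than these. Hspa8 was at 1047, 1098 and 1109 normalized CPM in the S animals, 933, 816 and 841 in T and 726, 797 and 827 in A + T, and every T library was below every S library (-0.33 ± 0.09 (SE), adjusted P = 0.0243). Hsp90aa1, the inducible HSP90, was at 241, 226 and 234 normalized CPM in the S animals, 179.6, 188 and 171 in T and 152, 155 and 177 in A + T, again without overlap (-0.38 ± 0.08 (SE), adjusted P = 0.00964). Its constitutive paralogue Hsp90ab1 was at 1543, 1361 and 1485 normalized CPM in the S animals, 1443, 1259 and 1257 in T and 1158, 1199 and 1011 in A + T. Animal 11 of T lay within the S range, and the log2 fold change of -0.15 ± 0.10 (SE), adjusted P = 0.322 was not called. Hspa8 and Hsp90aa1 share 68.0% and 53.1% of their 75-base windows with other annotated genes, chiefly processed copies, which makes their counts uncertain. Hspa4l, another HSP110 protein, was at 71.7, 72.7 and 73.5 normalized CPM in the S animals, 66.9, 65.8 and 61.4 in T and 62.03, 59.8 and 45.3 in A + T. The T libraries were all below S, but the difference missed the threshold (-0.17 ± 0.11 (SE), adjusted P = 0.302), and Hspa4, the third HSP110 gene, had a log2 fold change of -0.08 ± 0.10 (SE). The remaining cytosolic HSP70 genes, Hspa1l, Hspa2 and Hspa14, ranged from -0.08 to 0.13 and overlapped between groups.

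**Figure D3:**
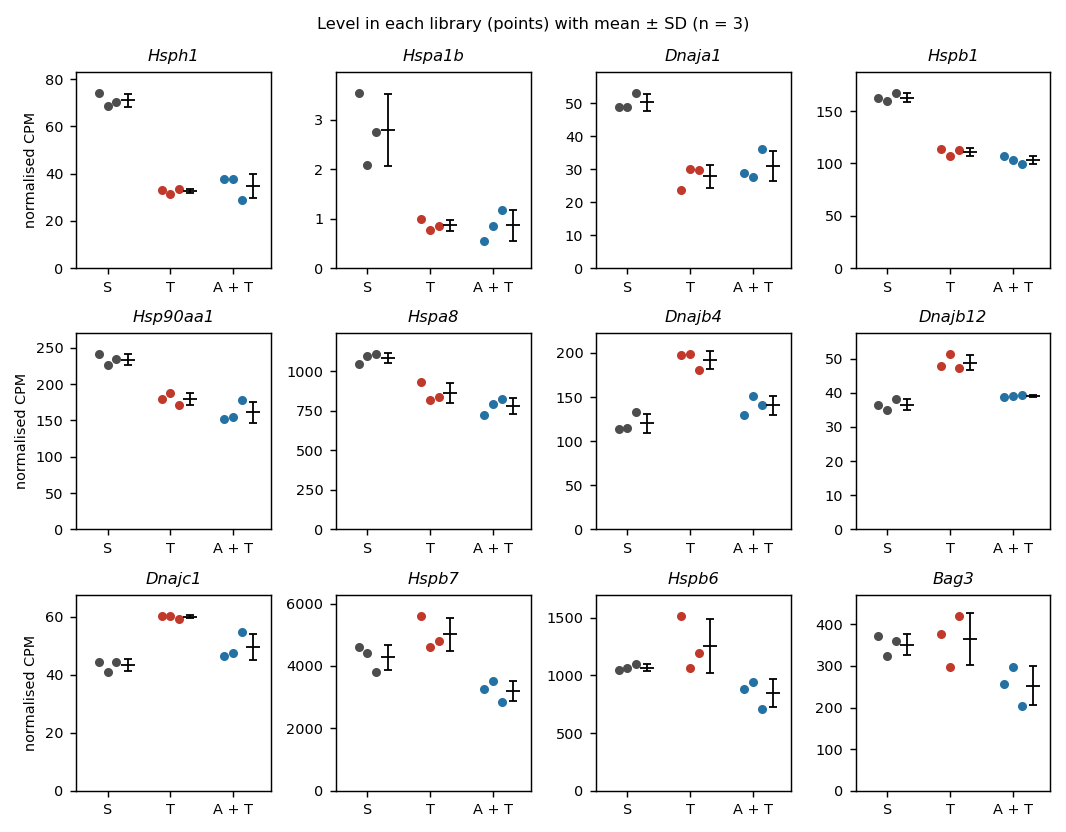
Normalized CPM of 12 members in each of the 9 libraries (points), with the mean ± SD of each group (n = 3) beside them and axes starting at 0. Hsph1, Hspa1b, Dnaja1, Hspb1, Hsp90aa1 and Hspa8 are lower in all T and all A + T libraries than in any S library, Dnajb4, Dnajb12 and Dnajc1 are highest in T, and Hspb7 and Hspb6 are lowest in A + T.

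Among the J-domain proteins, 3 fell and 7 rose. Dnaja1 (chr4:40722150-40737149, + strand), a class A cochaperone of Hspa8, was at 48.9, 48.7 and 53.1 normalized CPM in the S animals, 23.8, 29.9 and 29.8 in T and 28.9, 27.7 and 36.04 in A + T. The T libraries were far below S (-0.85 ± 0.12 (SE), adjusted P = 0.00114, 1.81-fold lower). Dnajb5, a class B protein of the Dnajb1 subfamily, was at 121, 115 and 108 normalized CPM in the S animals, 77.6, 69.8 and 77.6 in T and 54.4, 80.8 and 61.00 in A + T (-0.62 ± 0.13 (SE), adjusted P = 0.00798). Dnaja4, of the same class as Dnaja1, was at 170.1, 185 and 179.7 normalized CPM in the S animals, 138, 140.1 and 128 in T and 122, 134 and 106 in A + T (-0.40 ± 0.09 (SE), adjusted P = 0.0127). For both, all T libraries lay below all S libraries. Dnajb1, the classical stress-inducible class B partner of HSP70, was at 15.9, 16.7 and 21.8 normalized CPM in the S animals, 12.9, 12.5 and 17.03 in T and 12.3, 15.4 and 20.02 in A + T, and with T 15 above 2 of the S animals it was not called (-0.36 ± 0.20 (SE), adjusted P = 0.213).

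The J-domain proteins that rose belong to all 3 structural classes and sit in several compartments. Dnajb4, a close relative of Dnajb5 and Dnajb1, was at 114, 115 and 133 normalized CPM in the S animals, 198, 198 and 180.2 in T and 129, 151 and 141 in A + T. Its T libraries were above every S library, and it had the largest rise of any member (0.68 ± 0.09 (SE), adjusted P = 0.000941, 1.6-fold higher). Dnajc1, anchored in the endoplasmic reticulum membrane, was at 44.4, 40.9 and 44.5 normalized CPM in the S animals, 60.5, 60.3 and 59.4 in T and 46.6, 47.7 and 54.9 in A + T (0.47 ± 0.08 (SE), adjusted P = 0.00289). Dnajb12, another protein of that membrane, which takes part in the removal of misfolded membrane proteins, was at 36.3, 35.1 and 38.2 normalized CPM in the S animals, 47.8, 51.2 and 47.2 in T and 38.8, 39.1 and 39.2 in A + T (0.42 ± 0.07 (SE), adjusted P = 0.00275). In both, S and T did not overlap. Dnajc7, which binds HSP70 and HSP90 through tetratricopeptide repeats, was at 97.04, 90.8 and 81.4 normalized CPM in the S animals, 128, 115 and 107 in T and 101, 95.4 and 105 in A + T (0.38 ± 0.09 (SE), adjusted P = 0.0158). Dnajc2, a ribosome-associated cochaperone, was at 24.4, 26.8 and 25.3 normalized CPM in the S animals, 30.98, 34.3 and 28.9 in T and 27.2, 26.1 and 29.9 in A + T (0.30 ± 0.09 (SE), adjusted P = 0.0396). Dnajb6, a suppressor of protein aggregation whose mutation causes a muscular dystrophy in humans, was at 48.9, 47.7 and 50.8 normalized CPM in the S animals, 62.2, 56.9 and 59.3 in T and 45.9, 50.04 and 48.6 in A + T (0.28 ± 0.07 (SE), adjusted P = 0.0203), although 33.3% of its 75-base windows also occur in other genes. All T libraries exceeded all S libraries for these genes too, as they did for Dnaja2, the close relative of Dnaja1 that moved the other way (0.29 ± 0.07 (SE), adjusted P = 0.0166). The other 20 class C proteins tested were not called and lay between -0.28 (Dnajc11) and 0.36 (Dnajc9). Of the smaller classes, Dnaja3 (-0.12), Dnajb2 (0.06) and Dnajb14 (-0.40) were not called either.

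The small heat shock proteins split. Hspb1 (HSP25; chr5:135887919-135889563, + strand) was at 162, 159.5 and 167 normalized CPM in the S animals, 113, 107 and 113 in T and 107, 103 and 99.8 in A + T. Its libraries were tightly grouped, with every T value below S (-0.55 ± 0.07 (SE), adjusted P = 0.000593), although 47.3% of its 75-base windows also occur in the pseudogene Hsp25-ps1. Hspb3 was at 10.1, 9.64 and 6.94 normalized CPM in the S animals, 4.59, 4.28 and 4.3 in T and 5.69, 5.17 and 4.5 in A + T (-1.02 ± 0.17 (SE), adjusted P = 0.00288), with every T library below S although S 5 was itself lower than the other 2 S animals. Hspb8, which acts with Bag3 in the removal of damaged sarcomere proteins, was at 572, 621 and 565 normalized CPM in the S animals, 496, 453 and 489.5 in T and 466, 491 and 416 in A + T (-0.29 ± 0.09 (SE), adjusted P = 0.0407). Hspb2, the muscle partner of Hspb3, was at 46.3, 48.7 and 44.5 normalized CPM in the S animals, 40.6, 45.3 and 42.01 in T and 40.4, 37.2 and 41.9 in A + T and overlapped between the groups (-0.13 ± 0.08 (SE), adjusted P = 0.286). The dominant Hspb7 was at 4599.7, 4410.2 and 3812 normalized CPM in the S animals, 5614, 4610.3 and 4813 in T and 3255, 3502 and 2849 in A + T, with all T libraries just above S but no call (0.23 ± 0.12 (SE), adjusted P = 0.204). Hspb6 was at 1045, 1062 and 1099 normalized CPM in the S animals, 1519.6, 1062 and 1191 in T and 886, 946 and 713 in A + T, where T 11 stood apart from the other 2 T libraries (0.24 ± 0.14 (SE), adjusted P = 0.263). Hspb11, an intraflagellar transport protein despite its name, was at 3.10 to 4.68 CPM throughout.

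Mitochondrial chaperones did not pass the test in this comparison. Hspd1 (HSP60) was at 283, 294 and 308 normalized CPM in the S animals, 257, 210.3 and 286 in T and 294, 301 and 256 in A + T, with a log2 fold change of -0.23 ± 0.11 (SE), adjusted P = 0.172 and a 95% interval of -0.49 to 0.02. Its cochaperone Hspe1 (HSP10) was at 41.2, 46.8 and 48.9 normalized CPM in the S animals, 42.4, 36.97 and 44.3 in T and 42.6, 43.2 and 52.3 in A + T (-0.15 ± 0.11 (SE), adjusted P = 0.364). Hspa9 was at 807, 824 and 791 normalized CPM in the S animals, 857, 752 and 828 in T and 742, 778 and 698 in A + T, and its interval of -0.18 to 0.19 leaves room for only small changes in either direction. The regulators also missed the threshold. Hsf1 was at 36.1, 32.3 and 35.2 normalized CPM in the S animals, 29.2, 28.7 and 28.8 in T and 29.9, 28.8 and 24.5 in A + T, with all T libraries below S (-0.26 ± 0.09 (SE), adjusted P = 0.0679). Bag3 was at 371, 323 and 361 normalized CPM in the S animals, 376, 297 and 421 in T and 256, 298 and 204 in A + T, with a wide spread within T and an interval of -0.28 to 0.39.

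A distant relative of HSP70 without a settled chaperone role, Hspa12a (chr19:58795750-58943654, - strand), was at 58.4, 61.9 and 57.7 normalized CPM in the S animals, 27.8, 26.6 and 28.3 in T and 42.9, 43.6 and 29.3 in A + T. T was below S in every library (-1.11 ± 0.13 (SE), adjusted P = 0.000522), and A + T lay between them, except that A + T 22 was near the T level. Hspa12b, its endothelial paralogue, Hspa13, Hspbp1 and Hspbap1 had log2 fold changes from -0.19 to 0.10 and were not called.

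Of the T vs. S calls, those of Hsph1, Hspa1b, Hspa12a, Hspb3, Dnaja1, Dnajb5, Hspb1, Hsp90aa1, Dnajb4, Dnajb12 and Dnajc1 stayed below the threshold whichever of the 9 animals was omitted. Dnaja4 lost its call without S 3 (adjusted P = 0.0503), Dnajc7 without S 5 or T 11 (highest adjusted P = 0.0661), Dnaja2 without S 2 or S 3 (0.0611), Dnajb6 without S 2, S 3 or T 11 (0.0754) and Hspa8 without any 1 of the S animals, T 12 or T 15 (0.0827). Dnajc2 was lost without any S animal, T 11, T 12 or A + T 20 (0.135), and Hspb8 without any S or T animal or A + T 20 (0.141). With library size as the only scaling, 9 members were called (14.5% of those tested, against 12.2% of all genes). Without animals 12 and 22, which held airway transcripts, the count was 18, as with them. That was 29.0% of the members tested in both fits, while the share of all genes called was 26.4% without these animals and 21.2% with them.

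Promoters were read because heat shock factor binds a known element, inverted repeats of the unit GAA. Of the 64 members, 51 had a promoter window in RefSeq (GRCm38.p6; 250 bases before to 50 after the transcription start). Those not searched were Hspa8, Hsp90aa1, Hsp90ab1, Hspa9, Hspa13, Hspb2, Hsf1, Dnajc2, Dnajc5, Dnajc11, Dnajc12, Dnajc18 and Dnajc30. An element of 3 units, that is GAA, TTC and GAA or TTC, GAA and TTC with any 2 bases (NN) between neighbours, searched on both strands, was found in 4 of the 51 (7.84%: Hsph1, Dnajb6, Hspd1 and Hspe1), against 0.662% of the 27025 genes of the table. The shorter motif of 2 units, GAANNTTC or TTCNNGAA, chosen after the data had been seen and contained in every 3-unit match, was found in 16 of 51 members (31.4%) and in 17.0% of all genes. The windows printed here belong to members called in T vs. S, to Hspa1a beside its twin and to the mitochondrial pair, which was not called, and they are given 5′ to 3′ on the strand of the gene, with the motif in capitals.

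Hsph1: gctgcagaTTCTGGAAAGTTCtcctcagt
Hsph1: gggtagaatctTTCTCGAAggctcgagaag
Hspa1b: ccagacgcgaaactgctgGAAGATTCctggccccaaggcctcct
Hspa1a: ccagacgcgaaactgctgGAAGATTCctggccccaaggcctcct
Hspb1: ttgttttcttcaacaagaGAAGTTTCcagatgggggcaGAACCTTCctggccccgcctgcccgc
Dnaja1: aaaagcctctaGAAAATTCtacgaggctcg
Dnaja4: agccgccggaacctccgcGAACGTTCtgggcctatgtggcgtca
Dnajb4: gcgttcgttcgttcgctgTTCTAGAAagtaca
Dnajb6: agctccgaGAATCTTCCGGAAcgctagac
Hspd1: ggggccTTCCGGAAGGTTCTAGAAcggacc

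The first Hsph1 window, chr5:149636280-149636308 (- strand), holds 3 units just after the start, and the second, chr5:149636351-149636380 (- strand), holds 2 units just before it. The windows of Hspa1b at chr17:34959317-34959360 (- strand) and of Hspa1a at chr17:34972235-34972278 (- strand) are the same 44 bases, with a single 2-unit motif. Hspb1 has 2 copies of the 2-unit motif, at chr5:135887784-135887847 (+ strand). The Dnaja1 window, chr4:40722333-40722362 (+ strand), the Dnaja4 window, chr9:54699451-54699494 (+ strand), and the Dnajb4 window, chr3:152193846-152193877 (- strand), each show 1 copy, and Dnaja4 has another copy, not printed, that begins at position -52 from its start. Dnajb6 at chr5:29735844-29735872 (+ strand) has 3 units, and Hspd1 at chr1:55088053-55088082 (- strand) has 2 overlapping 3-unit matches in the stretch that it shares with the divergently transcribed Hspe1. In the GENCODE annotation the windows of Hspa1b, Hspa1a and Hspb1 lie outside genes, those of Dnaja4 and Dnajb4 in introns of longer transcripts, and those of Hsph1, Dnaja1, Dnajb6 and Hspd1 wholly or partly in annotated exons. Of the 16 members with the 2-unit motif, 7 fell in T vs. S (Hsph1, Hspa1b, Hspb1, Hspb3, Hspb8, Dnaja1 and Dnaja4), 2 rose (Dnajb4 and Dnajb6) and 7 were not called (Hspa1a, Hspb6, Bag3, Hspd1, Hspe1, Dnajc10 and Dnajc27). Of all 62 members tested, with or without the motif, 11 fell and 7 rose, beside 11% and 10.3% of all genes. The share of all genes with the motif that fell or rose was not computed. Since the 2-unit motif was chosen after the data had been seen, these counts cannot link it to the falls, and such a link was not tested. A match is a description of letters and not of binding.

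By the labels, A + T vs. T asks what ACVR2B/Fc changes in tumour hosts. With the identity of T open, a difference of treatment and a difference of tumour cannot be told apart here. The comparison uses the same T libraries as the first comparison. Here 5 of the 62 members fell at an adjusted P-value under 0.05, beside 2.79% of all genes, and no member rose, beside 3.09%; in either direction the background was 5.88%. With DESeq2 the counts were 7 lower and 1 higher (background 8.96% in either direction). At an unadjusted P-value under 0.05 there were 16 members in either direction (background 22.4%), 1 of them at least 1.5-fold lower (1.61%) and none at least 1.5-fold higher (6.50%). Without overlap between the groups, 13 members were lower (background 13.1%) and 3 higher (12.3%). The median log2 fold change was -0.13 over the members and 0.01 over all genes tested. Hspb7 fell in every A + T library below every T and every S library (-0.65 ± 0.12 (SE), adjusted P = 0.0175, 1.57-fold lower than T). Hspb6 showed the same order (-0.57 ± 0.14 (SE), adjusted P = 0.0442), its highest A + T library being at 946 CPM and its lowest T library at 1062 CPM. The other 3 were J-domain proteins that had been higher in T than in S: Dnajb4 (-0.45 ± 0.09 (SE), adjusted P = 0.0221), Dnajb12 (-0.32 ± 0.07 (SE), adjusted P = 0.029) and Dnajb6 (-0.30 ± 0.07 (SE), adjusted P = 0.0358). Since T enters both comparisons with opposite sign, the 2 directions are not independent of each other.

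Several members came close to the threshold in A + T vs. T. Bag3, which had A + T values of 256, 298 and 204 CPM against 376, 297 and 421 in T, had a log2 fold change of -0.53 ± 0.15 (SE), adjusted P = 0.0705, with T 12 falling inside the A + T range. For Dnajc1 (-0.27 ± 0.08 (SE), adjusted P = 0.0756) the groups did not overlap. Hspa12a had the largest positive value of any member (0.48 ± 0.13 (SE), adjusted P = 0.0616), and its groups did not overlap. Other members that were lower in T vs. S had values of 0.09 ± 0.11 (SE) for Hsph1, -0.01 ± 0.36 (SE) for Hspa1b, 0.22 ± 0.18 (SE) for Hspb3, 0.15 ± 0.12 (SE) for Dnaja1 and -0.10 ± 0.07 (SE) for Hspb1. The interval of the Hsph1 difference was -0.15 to 0.32 and that of Hspa1b -0.81 to 0.79, which for the sparse Hspa1b leaves room for a change of either sign.

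These 5 calls depended on single libraries. Without T 11, or without A + T 20, no member was called (background 0.973% and 2.51% of all genes), and without A + T 22 there were 6 (background 7.53%). Hspb7 was kept in 7 of the 9 fits (highest adjusted P = 0.0764, lost without T 11 or A + T 20), Dnajb4 in 6 (0.0919, also lost without T 12), Dnajb12 in 5 (0.0889, lost without T 11, T 12, A + T 20 or A + T 21), and Dnajb6 and Hspb6 in 1 (highest adjusted P = 0.138 and 0.153; Dnajb6 was kept only without A + T 22 and Hspb6 only without T 12). A fit on these 6 libraries alone called 0 (background 1.62% of all genes). Without animals 12 and 22 there were 8 calls, 7 lower and 1 higher (background 6.55% in either direction).

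By the labels, A + T mice differ from S mice in both HCT116 cells and ACVR2B/Fc. In A + T vs. S, a difference of tumour and a difference of treatment therefore cannot be told apart. This comparison shares the S libraries with the first comparison. All 12 members called were lower, beside 3.64% of all genes, and no member rose (4.67% of all genes did, and 8.31% changed in either direction). DESeq2 gave 17 lower and none higher (background 11.5% in either direction). In the main fit, 23 members were under an unadjusted P-value of 0.05 (background 26.1%), 8 of them at least 1.5-fold lower (3.09%) and none at least 1.5-fold higher (5.82%). The groups did not overlap for 27 of the 62 members in the lower direction, where the background was 16.5%, and for 4 in the higher direction (background 16.0%). The median log2 fold change of the members was -0.14, against 0.0034 over all genes. Among the members called, the 5 largest falls were those of Hspa1b (-1.68 ± 0.32 (SE), adjusted P = 0.0136), Hsph1 (-1.03 ± 0.10 (SE), adjusted P = 0.00136), Dnajb5 (-0.81 ± 0.13 (SE), adjusted P = 0.00726), Hspb3 (-0.80 ± 0.17 (SE), adjusted P = 0.0207) and Dnaja1 (-0.70 ± 0.12 (SE), adjusted P = 0.00899). For each of them every A + T library was below every S library. Hspa1a had a larger difference than the last 4 of these but was not called (-1.52 ± 0.48 (SE), adjusted P = 0.0786), with S 3 inside the A + T range. The markers of the atrium were also lower in every A + T library than in S, and their part in these differences was not tested.

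**Figure D4:**
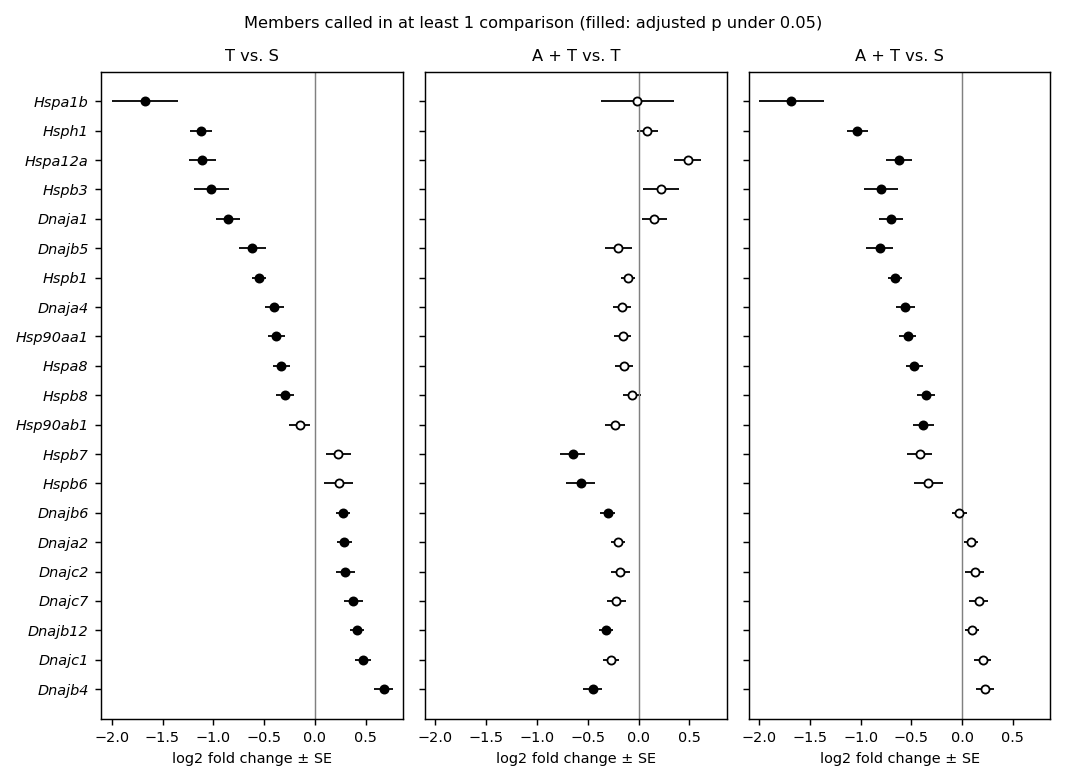
Log2 fold change ± SE (edgeR, 9 libraries in 1 fit) of the 21 members called in at least 1 comparison, ordered by T vs. S; filled points have an adjusted P-value under 0.05. Hspa1b is the lowest at -1.67 in T vs. S and -1.68 in A + T vs. S, whereas Hspb7, Hspb6, Dnajb6, Dnajb12 and Dnajb4 are filled on the negative side of A + T vs. T.

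The remaining calls in A + T vs. S were Hspb1 (-0.66 ± 0.07 (SE), adjusted P = 0.00136), Hspa12a (-0.62 ± 0.13 (SE), adjusted P = 0.0199), Dnaja4 (-0.56 ± 0.09 (SE), adjusted P = 0.00812), Hsp90aa1 (-0.54 ± 0.08 (SE), adjusted P = 0.00671), Hspa8 (-0.47 ± 0.09 (SE), adjusted P = 0.0129), Hsp90ab1 (-0.38 ± 0.10 (SE), adjusted P = 0.0451) and Hspb8 (-0.36 ± 0.09 (SE), adjusted P = 0.036). Both cytosolic HSP90 genes were therefore lower than in S. None of the J-domain proteins that rose in T vs. S was called here. Their values were 0.22 ± 0.09 (SE) for Dnajb4, 0.20 ± 0.08 (SE) for Dnajc1, 0.10 ± 0.07 (SE) for Dnajb12, 0.16 ± 0.09 (SE) for Dnajc7, -0.03 ± 0.07 (SE) for Dnajb6, 0.09 for Dnaja2 and 0.12 for Dnajc2. The interval of Dnajb4 was 0.02 to 0.43, and every A + T library of Dnajb12 and of Dnajc1 was above every S library. Hspb7 (-0.42 ± 0.12 (SE), adjusted P = 0.0609), Bag3 (-0.48 ± 0.15 (SE), adjusted P = 0.0805), Hsf1 (-0.32 ± 0.09 (SE), adjusted P = 0.0566) and Hspa4l (-0.38 ± 0.11 (SE), adjusted P = 0.055) were each below S in all 3 A + T libraries and missed the threshold. The mitochondrial genes were not called, with -0.06 ± 0.11 (SE) for Hspd1, 0.01 ± 0.11 (SE) for Hspe1 and -0.13 ± 0.08 (SE) for Hspa9.

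Of these 12 calls, Hspb1, Hsph1, Dnajb5, Dnaja1, Dnaja4 and Hsp90aa1 were kept in all 9 fits that left out 1 animal. Hspa1b was lost without S 2 (adjusted P = 0.0658), Hspa8 without S 3 (0.0572), Hspb3 without S 2, S 3 or A + T 21 (highest 0.0965), Hspa12a without any S animal (0.0777), Hsp90ab1 without any S or A + T animal or T 15 (0.158), and Hspb8 without any S animal, T 11, T 15, A + T 20 or A + T 22 (0.128). Leaving out S 2 brought the count from 12 to 7, while the share of all genes called went from 8.31% to 2.01%. Without animals 12 and 22 the count was 12 (background 9.42%).

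Summed over all members, normalized CPM were 13427, 13162 and 12679 in the S animals, 14587, 12459 and 13137 in T, and 10528, 11149 and 9672 in A + T. The 3 A + T libraries were the lowest of the 9. Hspb7 had a group mean of 4274 ± 411 (SD, n = 3) in sham hearts, 5012 ± 531 in T and 3202 ± 330.0 in A + T.

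A list of 39 chaperones and cochaperones outside the members was described in the same fit. In T vs. S, 7 of them fell and 4 rose, beside 11% and 10.3% of all genes, so the number that rose was near the background. Serpinh1 (HSP47), the collagen chaperone of the endoplasmic reticulum, was at 214, 202 and 228 normalized CPM in the S animals, 69.02, 64.3 and 66.7 in T and 115, 90.2 and 90.9 in A + T, so that its 3 groups were fully separate (-1.69 ± 0.10 (SE), adjusted P = 1.96e-05 in T vs. S and 0.57 ± 0.10 (SE), adjusted P = 0.0153 in A + T vs. T). Fkbp4, the immunophilin that assists HSP90 with steroid receptors, was at 304, 311 and 295 normalized CPM in the S animals, 177, 156 and 159.9 in T and 216, 220.0 and 182 in A + T (-0.88 ± 0.09 (SE), adjusted P = 0.000232). Its antagonist Fkbp5, itself a glucocorticoid-induced gene, was at 33.3, 17.97 and 21.1 normalized CPM in the S animals, 68.9, 92.8 and 55.95 in T and 22.02, 25.1 and 26.1 in A + T. It rose in T (1.59 ± 0.23 (SE), adjusted P = 0.00127), was lower in A + T than in T (-1.58 ± 0.23 (SE), adjusted P = 0.00705), and A + T overlapped with S. The HSP90 cochaperones Chordc1 (-0.54 ± 0.10 (SE), adjusted P = 0.00517), Ahsa1 (-0.44 ± 0.07 (SE), adjusted P = 0.00277), Ahsa2 (-0.41 ± 0.10 (SE), adjusted P = 0.014) and Stip1 (-0.37 ± 0.08 (SE), adjusted P = 0.0103) and the myosin chaperone Unc45b (-0.38 ± 0.10 (SE), adjusted P = 0.0231) also fell in T vs. S. Hsf4, Bag2 and Trap1 rose, with log2 fold changes of 0.56, 0.31 and 0.24 (adjusted P = 0.0244, 0.0247 and 0.0388).

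**Figure D5:**
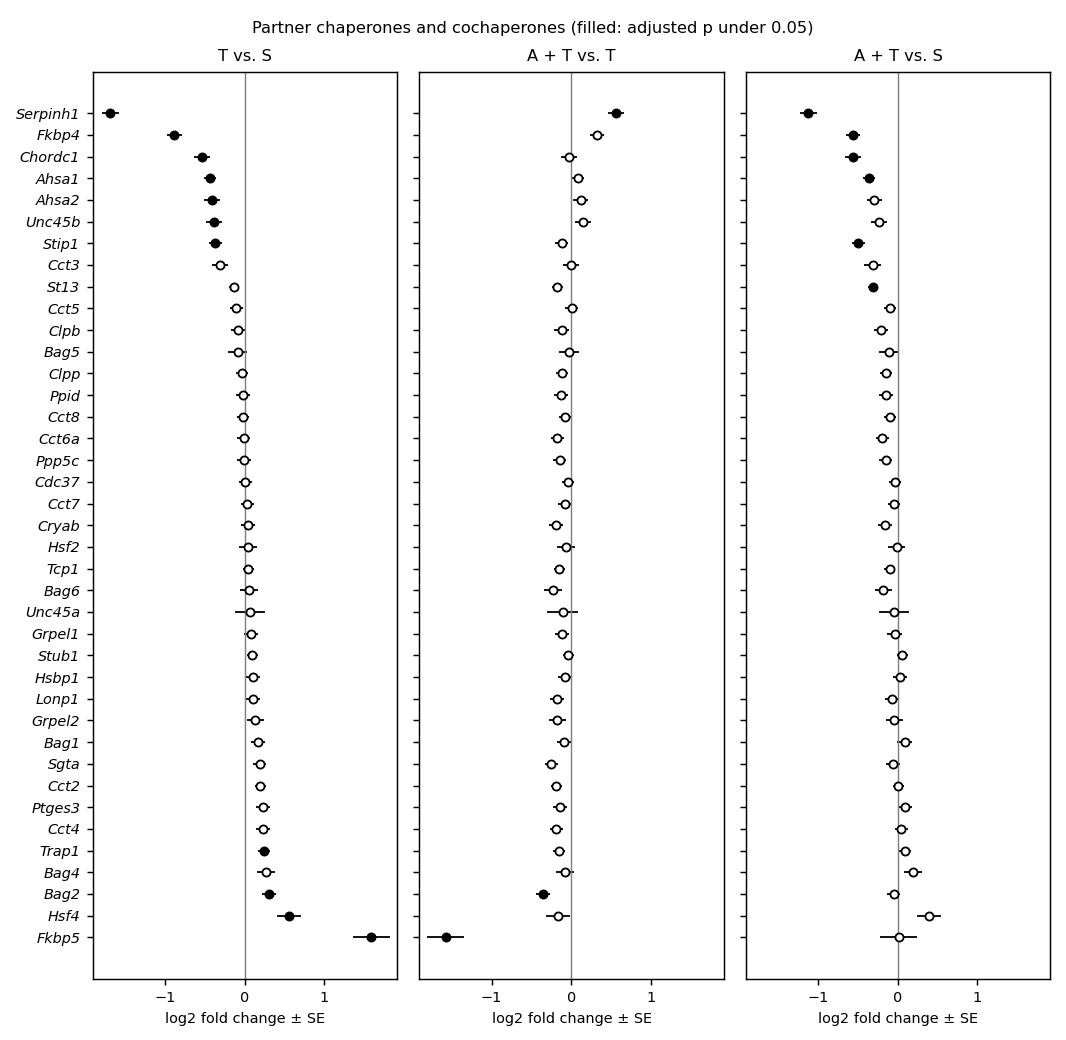
Log2 fold change ± SE of 39 partner chaperones and cochaperones in the 3 comparisons, ordered by T vs. S; filled points have an adjusted P-value under 0.05. Serpinh1 and Fkbp4 are the lowest in T vs. S, and Fkbp5 is at 1.59 in T vs. S and -1.58 in A + T vs. T.

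In A + T vs. T, where 3.09% of all genes rose and 2.79% fell, Serpinh1 rose and Fkbp5 and Bag2 fell (-0.35 ± 0.08 (SE), adjusted P = 0.0354 for Bag2), while the other 36 partners were not called. In A + T vs. S, the 6 calls were all lower, beside 3.64% of all genes: Serpinh1 (-1.12 ± 0.10 (SE), adjusted P = 0.000862), Fkbp4 (-0.56), Chordc1 (-0.56), Stip1 (-0.49), Ahsa1 (-0.36) and St13 (-0.31). The 8 genes measured of the chaperonin TRiC, which folds actin and tubulin, were not called in any comparison, and neither was Cryab, the small heat shock protein αB-crystallin, at 1042, 1049.9 and 1040.4 normalized CPM in the S animals, 1080.0, 986 and 1149 in T and 997, 951 and 864 in A + T. The median log2 fold change of the list was 0.04 in T vs. S, -0.12 in A + T vs. T and -0.10 in A + T vs. S.

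Markers of other cell types and states moved along with these groups. The 3 fibroblast markers fell in T vs. S (summed CPM 1037 to 1230 in S, 709 to 839 in T and 838 to 1176 in A + T), and 2 of 3 endothelial markers fell (581 to 692, 337 to 425 and 449 to 526). The 3 macrophage markers were higher in A + T than in both other groups (148 to 195 against 99.1 to 112 in S and 99.4 to 115 in T). Of the glucocorticoid-induced genes, 2 of 4 rose in T vs. S and 2 fell in A + T vs. T, with Zbtb16 at 51.3, 29.8 and 34.1 normalized CPM in the S animals, 284, 276 and 242 in T and 56.2, 103 and 89.1 in A + T. Of 11 clock genes, 4 rose and 1 fell in T vs. S, and of 7 immediate early genes 2 fell. Of the 6 cardiomyocyte markers, Actc1 fell and Tnnt2 rose in T vs. S (log2 fold changes -0.90 and 0.34). The part of these cell types and states in the differences of the heat shock genes was not tested.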

How the data were processed

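Messenger RNA enriched from total RNA of 9 snap-frozen hearts, 3 animals in each of 3 groups, was sequenced by the study as 75-base paired ends. Per the labels, reads were checked with FastQC and aligned to mm10 with STAR. The authors deposited uniquely mapped counts per RefSeq gene without normalization, and a table of log2 values per gene and library. The deposited log2 values differed from log2 CPM by a constant per gene (median SD across libraries 0.0051), which correlated with log2 exon length across 12888 genes (r = 0.792; genes are not independent replicates).

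Here, genes under 0.5 CPM in more than 4 libraries were removed (526), leaving 13364. edgeR 4.0.16 (R 4.3.3) fitted all 9 libraries together by quasi-likelihood with TMM scaling, and P-values were adjusted by Benjamini-Hochberg over all genes tested. They weigh a difference against the spread between animals within groups, 3 animals a group, estimated over all 9 libraries. Leaving out an animal can therefore change a call between the other groups. On simulated counts with 200 genes changed 2-fold, this test called 152 of them and 10 unchanged genes. Most members called here differed by less than 2-fold, so this recovery does not carry over to them. The 3-count limit covers counting error only, since reads carried no molecular identifiers. The intervals given with log2 fold changes come from the fit and include the spread between animals. Libraries held 12392222 to 19732471 counts. Locations are from GENCODE M21. Members with a role in stress and muscle and the 5 largest rises and falls called per comparison were named with values in every library. Members, lists and tests were chosen with earlier results of these data known. Alternatives used limma 3.58.1, DESeq2 1.42.0, other scalings, filters, thresholds and fits without single animals. Figures were drawn with matplotlib 3.10.9.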

Additional observations from a re-analysis of the deposited data

How the results depend on the processing

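No paired analysis was possible because the animal numbers in the labels differ between all groups. In T vs. S, 18 members were called as reported (background 21.2%) and 9 with library size as the only scaling (12.2%). The unadjusted P-value under 0.05 with at least a 1.5-fold change gave 8. Leaving out 1 animal gave 13 to 21, with 13 without S 2 (background 13.4%) and 21 without A + T 22 (28.3%). In A + T vs. T, 5 were called as reported (background 5.88%), 3 with upper-quartile scaling (5.68%) and 1 with library size only (3.28%). DESeq2 called 8 (8.96%), a fit on only these 2 groups 0 (1.62%), and a fit without animals 12 and 22 together 8 (6.55%). At an adjusted P-value under 0.1 there were 8, for which no background was computed. The unadjusted threshold with a 1.5-fold change gave 1, which was lower (background 1.61%). With 1 animal left out there were 0 to 6 (background 0.973% without T 11 and 7.53% without A + T 22). In A + T vs. S, 12 were called as reported (background 8.31%) and 7 to 12 with 1 animal left out (background 2.01% without S 2 and 8.13% without T 12). At an adjusted P-value under 0.1 there were 19, again without a computed background. The causes were not tested. No member called in a comparison had the opposite sign there in any of these settings: of 733 values of called members under an alternative, 629 kept their direction and side of the threshold and 104 kept only the direction. Of the 151 values that were not called, 42 had the opposite sign in at least 1 setting, all of them reported at 0.18 or less on the log2 scale. Among those given above with an SE or an interval, these were Bag3 (-0.05 to 0.19) and Hspa9 (-0.03 to 0.07) in T vs. S, Hspa1b (-0.40 to 0.23) in A + T vs. T, and Dnajb6 (-0.06 to 0.01), Hspd1 (-0.10 to 0.02) and Hspe1 (-0.08 to 0.07) in A + T vs. S. Hspa1a and Hspa1b were near 1 CPM in T and A + T, where counting error is a larger part of a value. Members with pseudogene copies are limited by the use of uniquely mapped reads. Besides those given above, Hspd1, Hspe1 and Dnaja1 share 33.7%, 23.7% and 16.6% of their 75-base windows with other genes.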
